A study of Mus musculus with 6 samples.

Results

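The transcripts of 10 glycolytic enzymes of skeletal muscle (*Hk2*, *Gpi1*, *Pfkm*, *Aldoa*, *Tpi1*, *Gapdh*, *Pgk1*, *Pgam2*, *Eno3* and *Ldha*) were followed in the gastrocnemius, the large mixed-fiber muscle of the calf. They were found by their symbols among the 23997 gene symbols that each library lists, and all 10 were present. RNAseq was performed on 1 gastrocnemius library per mouse from 6 mice that were 21 days old. The HrasG12V group was of genotype Caggs-Cre+/HrasG12V/+ and held mice 2276, 2278 and 2279. The wild-type (WT) group was of genotype Caggs-Cre-/HrasflG12V/+ (Hras+/+) and held the littermates 2277, 2280 and 2281, so n = 3 mice per genotype. All 6 mice carried the inserted G12V sequence on 1 *Hras* allele. The Cre, driven by the ubiquitous CAG promoter, exchanged it with the normal allele in the HrasG12V group, and in the WT group the floxed allele was not recombined. The exchange takes place throughout the body and is not specific to muscle, and *Hras* stays under its own promoter. The background was a mix of 3 inbred strains, and the labels give neither the sex nor the litter of each mouse.

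Glycolysis converts glucose to pyruvate, and the fast fibers that make up most of the gastrocnemius use it to regenerate ATP during short bursts of contraction. Hexokinase, glucose phosphate isomerase, phosphofructokinase, aldolase and triosephosphate isomerase form the upper part of the pathway, which spends ATP and splits the hexose. Glyceraldehyde phosphate dehydrogenase, phosphoglycerate kinase, phosphoglycerate mutase and enolase form the lower part, which yields ATP and NADH, and lactate dehydrogenase reoxidizes the NADH. Several steps have a muscle isozyme encoded by its own gene (*Hk2*, *Pfkm*, *Pgam2* and *Eno3*), and these genes are switched on as myofibers mature, in part through E-box and MEF2 elements. Others (*Gpi1*, *Tpi1*, *Gapdh*, *Pgk1*) are used by nearly every cell.

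The bases upstream of 4 transcription starts of these genes are given, so that the letters of these windows can be compared. *Pgam2* and *Eno3* encode muscle isozymes, *Pgk1* is used in all cells, and *Ldha*, shown for the upstream-most of its 2 starts, is a well-known hypoxia-responsive gene. Each line is the 250 bases upstream of a RefSeq transcription start (assembly GRCm38.p6), from the 5′ to the 3′ end of the gene's own strand. Capitals mark 3 motifs searched on both strands: CANNTG (the E-box), ACGTG (the core of the hypoxia response element, which also lies inside the E-box CACGTG) and the MEF2 motif.
*Pgam2* (chr11:5803797-5804046, minus strand): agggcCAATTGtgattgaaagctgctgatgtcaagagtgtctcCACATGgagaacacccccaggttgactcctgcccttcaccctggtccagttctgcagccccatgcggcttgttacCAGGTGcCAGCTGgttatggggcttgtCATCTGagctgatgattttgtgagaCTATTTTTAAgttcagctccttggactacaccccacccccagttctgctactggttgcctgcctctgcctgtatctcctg
*Eno3* (chr11:70656926-70657175, plus strand): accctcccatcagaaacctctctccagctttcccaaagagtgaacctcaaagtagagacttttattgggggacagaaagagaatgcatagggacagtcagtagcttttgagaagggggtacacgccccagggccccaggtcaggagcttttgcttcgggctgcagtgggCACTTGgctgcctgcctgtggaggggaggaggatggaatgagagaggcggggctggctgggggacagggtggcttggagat
*Ldha* (chr7:46845554-46845803, plus strand): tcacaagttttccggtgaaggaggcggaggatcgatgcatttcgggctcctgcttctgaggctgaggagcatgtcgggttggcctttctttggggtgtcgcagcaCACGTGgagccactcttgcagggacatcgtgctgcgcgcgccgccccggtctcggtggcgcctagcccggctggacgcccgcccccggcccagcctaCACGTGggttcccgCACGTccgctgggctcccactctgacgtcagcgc
*Pgk1* (chrX:106186850-106187099, plus strand): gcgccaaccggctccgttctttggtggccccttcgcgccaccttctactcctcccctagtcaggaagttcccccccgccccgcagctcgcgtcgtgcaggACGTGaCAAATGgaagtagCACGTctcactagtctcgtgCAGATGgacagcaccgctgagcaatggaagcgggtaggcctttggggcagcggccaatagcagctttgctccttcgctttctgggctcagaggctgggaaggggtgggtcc

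The *Pgam2* window held 5 E-boxes and the only MEF2 match among the 10 genes, and no ACGTG. *Eno3* had 1 E-box and neither of the other motifs. In *Ldha* both E-boxes were CACGTG, and with a further ACGTG these gave 5 ACGTG matches, since CACGTG reads as ACGTG on each strand. *Pgk1* had 2 of each of CANNTG and ACGTG. RefSeq gives 16 starts for the 10 genes. An E-box was found upstream of at least 1 start in 8 of the 10 genes, beside 66.2% of all 32851 mouse promoters in the table, counted per start, and ACGTG in 5 of the 10, beside 16.6%. The MEF2 motif was in 2.92% of all promoters. The *Gapdh* window held none of the 3. These matches describe the letters of the windows, and whether any factor binds there was not measured.

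The values are FPKM, read fragments divided by transcript length and scaled to the library, which the authors had made with Cuffnorm, so levels can be compared between genes. In the WT muscle *Aldoa*, the aldolase that splits fructose bisphosphate, was the most abundant of the 10, at 10783 FPKM ± 1401 (SD, n = 3). Below it stood *Eno3*, the muscle enolase (3797 ± 456), *Gapdh* (3236 ± 257), *Pgam2*, the muscle phosphoglycerate mutase (2127 ± 338), and *Ldha*, the lactate dehydrogenase subunit of fast fibers (1855 ± 295). *Tpi1* (1215 ± 173), *Pfkm* (1032 ± 117) and *Pgk1* (836 ± 78.1) followed. *Gpi1* (455 ± 44.9 FPKM) and *Hk2*, the insulin-responsive muscle hexokinase (52.2 ± 2.86 FPKM), were lowest. Within this order the WT ranges overlapped between *Eno3* and *Gapdh*, between *Pgam2* and *Ldha*, between *Tpi1* and *Pfkm*, and between *Pfkm* and *Pgk1*. The same order held in 5 of the 6 libraries. In HrasG12V mouse 2279 it differed, with *Gapdh* above *Eno3* and *Pfkm* above *Tpi1*. Together the 10 genes held 4.79%, 4.56% and 5.24% of the summed FPKM in WT mice 2277, 2280 and 2281, and 4.57%, 3.30% and 3.48% in HrasG12V mice 2276, 2278 and 2279.

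**Figure D1:**
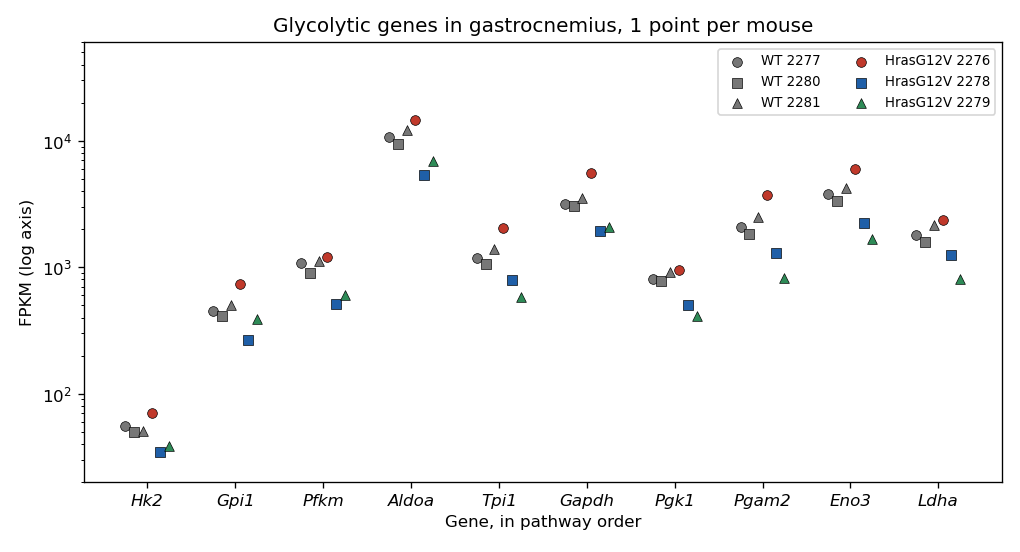
FPKM of the 10 glycolytic genes (log axis) in pathway order, 1 point per mouse, with the 3 WT mice in gray and each HrasG12V mouse in its own color. In every gene the red point of HrasG12V mouse 2276 lies above the 3 gray points, and the points of HrasG12V mice 2278 and 2279 lie below them.

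The 3 HrasG12V mice fell on both sides of the WT mice. In all 10 genes mouse 2276 was above every WT mouse, and in all 10 genes mice 2278 and 2279 were below every WT mouse. Much of the transcriptome was displaced in the same way. Of the 13359 genes tested (mean FPKM of at least 0.5, which all 10 passed), 43.1% were above every WT mouse in 2276, 44.9% were below every WT mouse in 2278 and 41.6% were below in 2279. All 3 conditions together held for 14.0% of the genes tested. Among the 1351 genes with a mean of at least 50 FPKM, which include 9 of the 10 (*Hk2* was just under), these shares were 66.0%, 73.1%, 62.5% and, for all 3 together, 37.5%. The pattern was therefore common among abundant transcripts and was not confined to glycolytic genes.

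The libraries also differed in other properties. The summed FPKM was 814013 in mouse 2276, against 491045 to 547122 in the WT mice and 429351 and 413020 in mice 2278 and 2279, while the median over the genes tested lay between 6.39 and 6.64 FPKM in all 6, so the sums do not measure depth. In mouse 2276 the difference from WT also followed transcript length: with the genes split into 10 classes of equal size by length, the median log2 difference was 0.79 in the shortest class and -0.59 in the longest, while in mice 2278 and 2279 the classes lay between -0.14 and 0.01. Markers of skeletal muscle fibers (8 genes) summed to 20714 to 31953 FPKM in WT and 18436 to 34944 in HrasG12V muscle. These sums are affected by 5 of the 8 genes being listed at 0 in some or all libraries (*Acta1*, *Ckm*, *Myh4*, *Myh1* and *Tnnt3*). The 6 B cell markers summed to 81.9 and 65.7 FPKM in mice 2278 and 2279, against 0.66 to 1.37 in the other 4 libraries, and the 6 T cell markers to 30.5 and 41.5 against 0.78 to 0.996. Neutrophil markers (7 genes) summed to 133 and 52.6 in these mice, to 19.7 in mouse 2276 and to 0.72 to 3.68 in WT mice. Erythroid markers (7 genes) summed to 766, 528 and 229 FPKM in mice 2276, 2278 and 2279 against 245 to 278 in WT mice. Adipocyte markers (8 genes) summed to 841, 1024 and 939 FPKM against 423 to 759, and endothelial markers (6 genes) to 128, 135 and 134 against 145 to 180. Fibroblast and tendon markers (9 genes) summed to 875, 3598 and 1086 FPKM against 2183 to 4920, and Schwann cell markers (6 genes) to 231, 521 and 621 against 136 to 374. Macrophage markers (7 genes) summed to 64.8, 94.3 and 51.3 FPKM against 46.2 to 55.3, and smooth muscle markers (5 genes) to 1889, 766 and 1111 against 1074 to 1171. *Pax5* and *Ms4a1*, which define B cells, and *Cd8a* were listed at 0 in at least 1 library. Apart from the checks given below for scaling and length, the part of these properties in the levels of the glycolytic genes was not tested. In bulk muscle, fewer fibers and less of a transcript per fiber cannot be told apart. Several abundant transcripts of muscle fibers were listed at 0 (*Acta1* and the fast-fiber genes *Myh4* and *Atp2a1* in all 6 libraries, *Ckm* in 5), whereas none of the 10 glycolytic genes was. *Hras* itself was at 36.8, 36.0 and 51.8 FPKM in the WT mice and 58.8, 28.9 and 16.0 FPKM in HrasG12V mice 2276, 2278 and 2279, with no distinction between its alleles.

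Glucose enters the pathway through hexokinase. *Hk2* (chr6:82725025-82774454, minus strand, GENCODE vM21 on GRCm38) was at 55.4, 50.1 and 50.9 FPKM in the WT mice 2277, 2280 and 2281, and at 70.1, 34.6 and 38.6 in HrasG12V mice 2276, 2278 and 2279. It was the least variable of the 10 in both genotypes, with a coefficient of variation of 5.48% in WT and 40.6% in HrasG12V muscle. *Gpi1*, the isomerase of the next step (chr7:34201330-34230336, minus strand), was at 455, 409 and 499 FPKM in the WT mice and 741, 267 and 393 in HrasG12V mice. Mouse 2279 lay closest to WT here, at 0.864 of the WT mean, although still under the lowest WT mouse. *Pfkm*, the muscle phosphofructokinase that commits the sugar to glycolysis (chr15:98092589-98132451, plus strand), was at 1076, 900 and 1120.1 FPKM in the WT mice and 1209, 511 and 603 in HrasG12V mice. Mouse 2276 was only 1.17 times the WT mean for this gene, while mice 2278 and 2279 were at 0.495 and 0.585 of it.

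*Aldoa* (chr7:126795234-126800751, minus strand) was at 10713, 9418 and 12217 FPKM in the WT mice and 14584, 5325 and 6955 in HrasG12V mice. The difference between mice 2276 and 2278 was 2.74-fold. *Tpi1*, which interconverts the products of aldolase (chr6:124810586-124814296, minus strand), was at 1194, 1054 and 1398 FPKM in the WT mice and 2049.5, 795 and 578 in HrasG12V mice. From this step on, with the exception of *Gapdh*, mouse 2279 rather than mouse 2278 was the lowest of the 6. Each of these 2 mice was lowest in 5 of the 10 genes.

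In the lower part of the pathway *Gapdh* (chr6:125161715-125166467, minus strand) was at 3158, 3027 and 3522 FPKM in the WT mice and 5539, 1952 and 2079 in HrasG12V mice. *Gapdh* is a common reference transcript, and here it was 2.84-fold higher in mouse 2276 than in mouse 2278. *Pgk1*, the first ATP-yielding enzyme (chrX:106187100-106203699, plus strand), was at 805, 778 and 925 FPKM in the WT mice and 959, 500 and 409 in HrasG12V mice. Its excess in mouse 2276, 1.15 times the WT mean, was the smallest of the 10.

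*Pgam2* (chr11:5801640-5803733, minus strand) spread the most. It was at 2067, 1822 and 2491 FPKM in the WT mice and 3709, 1306 and 825 in HrasG12V mice, so the highest and lowest mice, both of the HrasG12V group, differed 4.50-fold against 1.37-fold among WT mice. *Eno3* (chr11:70657202-70662513, plus strand) was at 3811, 3334 and 4245 FPKM in the WT mice and 5983, 2226 and 1660 in HrasG12V mice, a 3.60-fold spread. *Ldha*, which reduces pyruvate to lactate (chr7:46841475-46855627, plus strand), was at 1803, 1589 and 2173 FPKM in the WT mice and 2379, 1244 and 813 in HrasG12V mice. WT mice had an order of their own: mouse 2280 was the lowest of the 3 in all 10 genes, and mouse 2281 the highest in 9 of 10, *Hk2* being the exception.

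**Figure D2:**
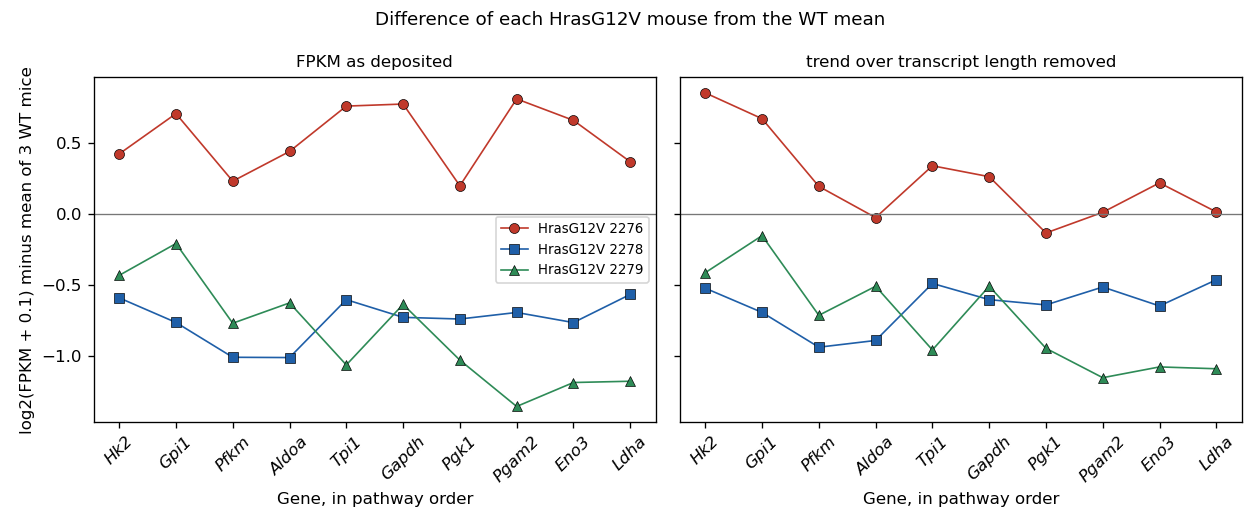
Difference of each HrasG12V mouse from the mean of the 3 WT mice on the log2(FPKM + 0.1) scale, for the 10 genes in pathway order, as deposited (left) and after the trend of each library over transcript length was removed (right). On the left mouse 2276 is above 0 in all 10 genes, from 0.20 in Pgk1 to 0.81 in Pgam2, and on the right it is near or below 0 in Aldoa, Pgk1, Pgam2 and Ldha, while mice 2278 and 2279 are below 0 in every gene of both panels.

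Over all 6 mice no genotype difference was called for any of the 10 genes. Log2 values of FPKM + 0.1 were compared with limma, with p adjusted over all 13359 genes by the Benjamini-Hochberg method. All 10 log2 fold changes (HrasG12V minus WT) were negative, from -0.09 (SE 0.42) for *Gpi1* to -0.52 (SE 0.39) for *Pgk1*, with a median of -0.40, beside a median of -0.03 over all genes tested and -0.10 over those of at least 50 FPKM. The unadjusted p ran from 0.23 for *Pgk1* to 0.84 for *Gpi1*, and the smallest limma adjusted p was 0.71. None of the 10 genes was below an unadjusted p of 0.05, beside 10.2% of the genes tested, and none below an adjusted p of 0.05, beside 0.0599%. With array weights, which count discordant libraries less, 8 of the 10 genes passed an unadjusted p of 0.05, beside 22.8% of all genes tested. *Pfkm* and *Pgk1* passed it with quantile normalization, beside 12.7%, and with the same total FPKM, beside 5.33%. None of the 10 passed adjustment in these 3 fits. The 95% intervals were wide: that of *Pgam2* ran from -1.86 to 1.03 and that of *Hk2*, the narrowest, from -0.90 to 0.51. The spread among HrasG12V mice was the larger one, with a median coefficient of variation over the 10 genes of 55.0% against 11.7% in WT mice. Over all genes tested these medians were 29.7% and 9.28%, and over those of at least 50 FPKM 43.5% and 8.15%.

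Without mouse 2276 all 10 log2 fold changes were lower, from -0.48 for *Gpi1* to -1.02 for *Pgam2*, with a median of -0.85, beside -0.07 over all genes tested and -0.35 over those of at least 50 FPKM. In this comparison of 2 HrasG12V mice with 3 WT mice, 9 of the 10 genes passed an unadjusted limma p of 0.05, beside 17.4% of all genes that were lower at that threshold. The exception was *Gpi1*, with a p of 0.064. *Pgk1* (log2 fold change -0.88, SE 0.15, limma adjusted p = 0.033), *Pfkm* (-0.89, SE 0.16, adjusted p = 0.036) and *Hk2* (-0.51, SE 0.11, adjusted p = 0.049) also passed the adjusted threshold, beside 4.30% of all genes that were lower at it. Neither share was computed for genes of at least 50 FPKM, whose median was lower than that of all genes. Mice 2278 and 2279 are the ones with B and T cell transcripts, whose part in the difference was not tested. Leaving out mouse 2278 or 2279 instead moved the median of the 10 genes to -0.21 and -0.07, and the sign of 2 and 3 of them, respectively, became positive. A single mouse thus decided whether a difference was called.

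**Figure D3:**
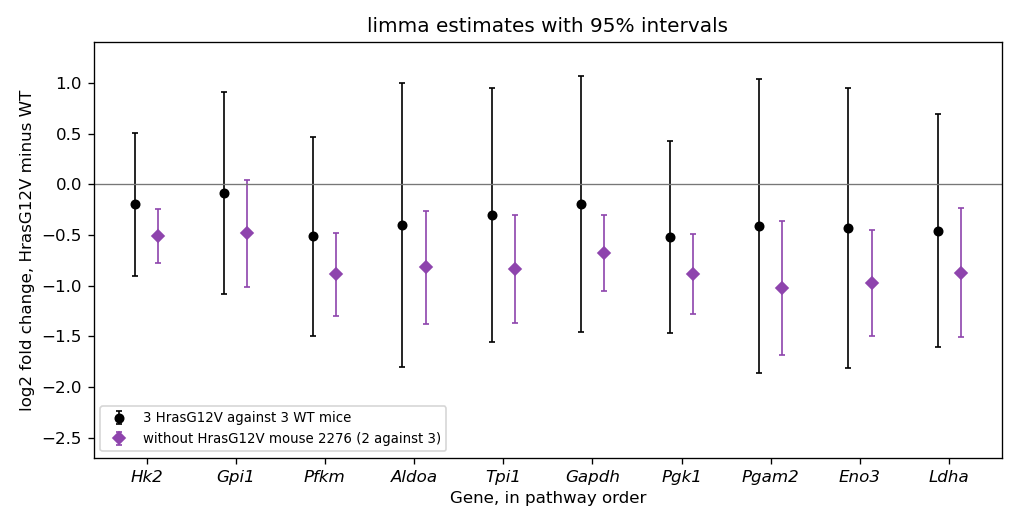
Log2 fold changes of the 10 genes (HrasG12V minus WT, limma on log2(FPKM + 0.1)) with 95% intervals, over all 6 mice (black) and without HrasG12V mouse 2276 (purple). All black intervals cross 0, and of the purple ones only that of Gpi1 does, from -1.01 to 0.04.

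The level of the 10 genes relative to WT depended on how the libraries were scaled. As deposited, the median of the 10 log2 differences from WT was 0.55 in mouse 2276, -0.73 in mouse 2278 and -0.90 in mouse 2279. The median of all genes tested was 0.04, -0.08 and -0.04, and that of genes of at least 50 FPKM was 0.52, -0.43 and -0.29. Rescaling each library to the same summed FPKM shifted the median of all genes to -0.57, 0.19 and 0.28 in these mice. The glycolytic genes of mouse 2276 then lay at -0.09, above that shifted median, with 2 of them above and 5 below every WT mouse. Of all genes tested 13.8% were above and 71.0% below, and of those of at least 50 FPKM 36.9% and 47.9%. With this scaling mouse 2278 kept all 10 below WT (median -0.46) and mouse 2279 kept 8 (median -0.56), beside 22.6% and 17.2% of all genes tested and 53.6% and 35.8% of those of at least 50 FPKM. Centring on 10 other abundant myofiber transcripts shifted the median of all genes to -0.88, 0.85 and 0.27. It turned the glycolytic median of mouse 2278 to 0.19, with no gene below every WT mouse, and that of mouse 2276 to -0.37, while mouse 2279 stayed at -0.58 with 8 genes below. The shares below every WT mouse were then 1.44% and 13.7% of all genes tested in mice 2278 and 2279, and 3.92% and 28.9% of those of at least 50 FPKM. After this centring the 10 genes in mouse 2278 were not below their WT range, although they stayed below the shifted median of all genes. The centre was the median log2 level of those transcripts in each library, not the median of their differences from WT. Over the 11 tested of the 12 listed, those differences had medians of 0.68, -0.66 and -0.32 in mice 2276, 2278 and 2279. By that measure the glycolytic median of mouse 2278, -0.73 as deposited, was not above the myofiber median. Quantile normalization gave glycolytic medians of -0.09, -0.29 and -0.35.

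**Figure D4:**
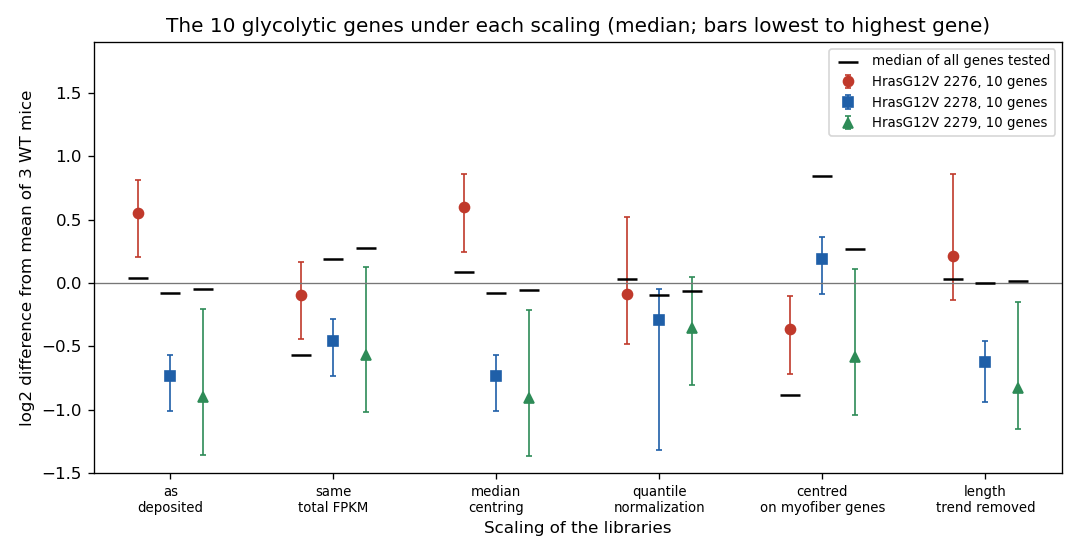
Log2 difference from the WT mean in each HrasG12V mouse under 6 scalings of the libraries, with the median of the 10 genes as a point, the lowest and highest gene as bar ends, and the median of all genes tested as a black dash. Only mouse 2279 has a negative median under every scaling, and the medians of mice 2276 and 2278 each change sign.

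The values of mouse 2276 went with transcript length. The annotated transcripts of the 10 genes run from 840 bases (*Pgam2*) to 5513 (*Hk2*), and 7 of them fall in the 3 shortest of the 10 length classes, where the medians in mouse 2276 were 0.79, 0.63 and 0.38. After the trend over length was removed from each library, a step chosen after the data were seen, the median of the 10 genes in mouse 2276 was 0.21, beside 0.22 for genes of at least 50 FPKM, and 6 of the 10 stayed above every WT mouse, as did 42.0% of the genes with a length and 58.0% of those of at least 50 FPKM. *Hk2* and *Gpi1*, of 5513 and 2884 bases, were then the highest (0.86 and 0.67), while *Pfkm*, of 2879 bases, was at 0.20. Mice 2278 and 2279 were little altered, with medians of -0.62 and -0.83 and all 10 genes below every WT mouse. This held for 38.8% of the genes in mouse 2278 and 37.2% in mouse 2279, and for 69.0% and 57.4% of those of at least 50 FPKM. The limma comparison over 6 mice still called none of the 10 genes, with adjusted p between 0.46 and 0.99.

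Ratios to *Gapdh* within a library do not depend on the scaling of the libraries. *Hk2* was at 0.0175, 0.0166 and 0.0145 of *Gapdh* in the WT mice and 0.0127, 0.0177 and 0.0186 in HrasG12V mice 2276, 2278 and 2279. *Aldoa*, at 3.39, 3.11 and 3.47 times *Gapdh* in WT mice, was at 2.63, 2.73 and 3.35 times in HrasG12V mice, and its spread over the 6 libraries fell from 2.74-fold to 1.32-fold. *Pgam2* kept the largest spread, 1.78-fold, with mouse 2279 at 0.397 of *Gapdh* against 0.602 to 0.707 in the other 5. Mouse 2279 was low relative to *Gapdh* in the later steps, by -0.55 for *Eno3*, -0.54 for *Ldha* and -0.72 for *Pgam2* on the log2 scale, and high in *Gpi1*, by 0.43. In mouse 2278 these ratios differed from WT by -0.28 to 0.16, with a median of -0.01. The other two had lower medians, -0.33 in mouse 2276 (from -0.58 to 0.04) and -0.39 in mouse 2279 (from -0.72 to 0.43). These ratios carry the length trend of mouse 2276. With the trend removed its median was -0.07 (from -0.40 to 0.59), and *Hk2* was above its WT mean relative to *Gapdh* by 0.59 and *Gpi1* by 0.41, while mice 2278 and 2279 had medians of -0.04 and -0.44. Across the 6 libraries the 45 pairs among the 10 genes had Pearson's r from 0.68 to 0.998 with a median of 0.92, a description over 6 points that share the displacement of whole libraries.

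The muscle isozymes were compared with their counterparts from other tissues inside each library. *Hk2* exceeded *Hk1*, the hexokinase of most other tissues, by 11.9, 10.2 and 12.2 times in the WT mice and by 14.3, 5.72 and 8.45 times in HrasG12V mice 2276, 2278 and 2279. *Pfkm* exceeded the sum of *Pfkl* and *Pfkp*, the liver and platelet forms, by 109, 101 and 158 times in the WT mice and by 109, 39.5 and 69.0 times in HrasG12V mice. *Pgam2* exceeded *Pgam1*, the brain form, by 145, 131 and 182 times in WT and by 201, 50.9 and 63.1 times in HrasG12V muscle. In these 3 ratios mice 2278 and 2279 were below every WT mouse, and mouse 2276 was inside or above the WT range. The isozyme ratios were taken without removal of the length trend of mouse 2276. Mouse 2278 had the highest levels of the 6 for *Hk1* (6.05 FPKM), *Pfkl* (7.80 FPKM) and *Pgam1* (25.6 FPKM), and *Pgam1* was at 13.7 to 14.2 FPKM in the WT mice.

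*Eno3* exceeded *Eno1*, the enolase of most tissues, by 260, 178 and 246 times in the WT mice and by 635, 139 and 127 times in HrasG12V mice. *Eno1* was at 9.42 FPKM in mouse 2276 against 14.7, 18.7 and 17.3 in WT mice, but its level is uncertain, since *Eno1b*, a near-identical copy, was listed separately. *Eno1b* was at 6.38, 6.74 and 6.95 FPKM in the WT mice and at 11.1, 8.77 and 4.23 in HrasG12V mice, so it was highest in mouse 2276. With both summed, a step chosen after the data were seen, the ratio was 181, 131 and 175 in the WT mice and 292, 89.7 and 95.9 in HrasG12V mice. *Ldha* exceeded *Ldhb*, the subunit of heart and slow fibers, by 6.74, 8.94 and 26.8 times in the WT mice and by 6.002, 16.1 and 7.57 times in HrasG12V mice. The outlying WT value was that of mouse 2281, in which *Ldhb* was at 81.0 FPKM against 267 and 178, and in which the slow myosin *Myh7* was at 0.443 FPKM against 96.5 and 95.2 in the other WT mice. *Aldoc*, the brain aldolase, was under 0.4 FPKM in every library, so the *Aldoa* to *Aldoc* ratio rests on a value near 0. The 6 ratios were compared between the genotypes in a two-sided exact permutation test, whose smallest possible p with 3 against 3 mice is 0.1, and none reached it. The p-values were 0.3 for *Pfkm* over *Pfkl* and *Pfkp*, 0.4 for *Pgam2* over *Pgam1*, 0.5 for *Hk2* over *Hk1*, 0.6 for *Ldha* over *Ldhb* and 1 for the other two, and after Benjamini-Hochberg adjustment over 6 ratios they were 0.9 or 1.

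**Figure D5:**
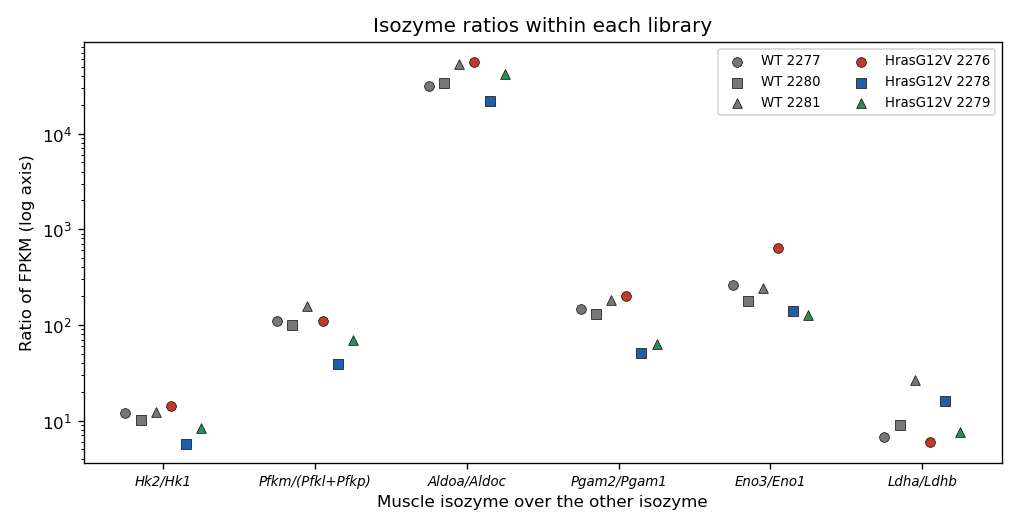
Ratio of the FPKM of the muscle isozyme to that of its counterpart in each library (log axis), 1 point per mouse, WT in gray. HrasG12V mice 2278 and 2279 lie below the 3 WT mice for Hk2/Hk1, Pfkm/(Pfkl+Pfkp), Pgam2/Pgam1 and Eno3/Eno1, and the genotypes overlap in Aldoa/Aldoc and Ldha/Ldhb.

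Of 20 further isozymes and steps of glycolysis 11 passed the filter on low values, and none had an unadjusted p below 0.05, beside 10.2% of all genes tested. Their median log2 fold change was 0.08, with *Pfkl* highest (0.45, SE 0.22). The pattern of the 10 genes was found in 1 of the 11, near the 14.0% of all genes tested, and that was *Pkm*, the muscle pyruvate kinase of the last step, at 1288, 1224 and 1500.3 FPKM in the WT mice and 1925, 916 and 787 in HrasG12V mice. Of 7 regulators of fructose bisphosphate, 6 were tested, with a median log2 fold change of -0.43 and none called. The extremes were *Pfkfb3*, an inducible activator of phosphofructokinase, at 0.74 (SE 0.41) and *Pfkfb1* at -0.73 (SE 0.38). *Pfkfb3* was at 72.3 FPKM in mouse 2279, against 21.5 to 27.4 in the WT mice and 35.6 and 23.0 in mice 2276 and 2278.

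Among 11 genes of glucose and lactate transport, 1 was higher and 2 were lower at an unadjusted p of 0.05, which 10.2% of all genes passed, and none after adjustment. *Slc2a1*, the basal glucose transporter, was at 3.54, 3.64 and 3.73 FPKM in the WT mice and 4.49, 5.06 and 7.49 in HrasG12V mice (log2 fold change 0.59, SE 0.21, limma adjusted p = 0.47). *Slc2a12* was at 5.73, 4.57 and 5.84 FPKM in the WT mice against 3.48, 2.55 and 3.47 (-0.75, SE 0.19, adjusted p = 0.38). *Tbc1d1*, a brake on glucose transporter traffic, was at 5.67, 5.53 and 8.04 FPKM against 2.72, 3.60 and 4.72 (-0.80, SE 0.25, adjusted p = 0.43), and it was the lowest of the list as *Slc2a1* was the highest. *Slc2a4*, the insulin-responsive transporter of muscle, was at 215, 181 and 225 FPKM in the WT mice and 264, 96.9 and 148 in HrasG12V mice. It was the only 1 of the 11 with the pattern of the glycolytic genes, beside 14.0% of all genes tested.

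Among the shuttles that carry the NADH of glycolysis into mitochondria, 6 of 9 genes tested had the pattern of the glycolytic genes, beside 14.0% of all genes tested and 37.5% of those of at least 50 FPKM. Their median log2 fold change was -0.40, from -0.01 for *Gpd1l* to -0.74 (SE 0.51) for *Got1*, the cytosolic aspartate aminotransferase. Over all 6 mice *Gpd2*, the mitochondrial glycerol phosphate dehydrogenase, was the 1 gene with an unadjusted limma p below 0.05 (-0.66, SE 0.19, adjusted p = 0.41), with 51.4, 54.5 and 65.3 FPKM in the WT mice and 35.0, 32.4 and 41.0 in HrasG12V mice. Of 10 genes of pyruvate entry into mitochondria 4 had the pattern and 9 had a negative log2 fold change, with a median of -0.40. *Dlat*, a core subunit of pyruvate dehydrogenase (-0.71, SE 0.26, adjusted p = 0.47), and *Pdpr*, a regulator of its phosphatase and the lowest of the list (-1.14, SE 0.39, adjusted p = 0.45), had an unadjusted limma p below 0.05. These 2 of 10 genes, and the 1 of 9 shuttle genes, stand beside 10.2% of all genes tested. Without mouse 2276 they became 8 of 10 and 7 of 9, all lower, beside the 17.4% of all genes that were lower in that comparison and the 9 of 10 glycolytic genes. The share among genes of at least 50 FPKM was not computed for that comparison. In the other lists the genes lower without that mouse were 5 of 11 other myofiber transcripts, 4 of 11 in transport, 2 of 11 further isozymes, 1 of 6 regulators of fructose bisphosphate, 3 of 15 transcription factors, 2 of 10 fast-fiber and 1 of 10 slow-fiber genes. *Pdpr* was at 48.2, 40.6 and 48.6 FPKM in the WT mice and at 11.2, 24.6 and 31.8 in HrasG12V mice, and *Pdp1* was the highest of the list at 0.02.

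Of 15 transcription factors known for glycolytic genes, 12 had a negative log2 fold change, with a median of -0.25. *Myc* was higher, at 2.63, 3.38 and 2.79 FPKM in the WT mice and 3.50, 4.65 and 5.95 in HrasG12V mice (0.64, SE 0.23, limma adjusted p = 0.47), and was the highest of the list. *Mlxip*, a glucose-sensing factor also called MondoA, was the lowest, at 46.2, 40.1 and 49.6 FPKM in the WT mice and 25.3, 24.3 and 31.4 in HrasG12V mice (-0.75, SE 0.19, adjusted p = 0.38). These 2 of 15 had an unadjusted p below 0.05, a share near the 10.2% of all genes tested. *Hif1a*, a factor of the hypoxia response, was at 8.28, 8.48 and 8.23 FPKM in the WT mice and 4.10, 10.3 and 8.999 in HrasG12V mice. In mouse 2276 its log2 difference from WT was -1.01, and -0.70 once the length trend was removed.

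Fiber-type transcripts were set beside the glycolytic genes. None of the 10 fast-fiber contractile genes tested had an unadjusted p below 0.05, beside 10.2% of all genes tested. Their median log2 fold change was -0.03, and 4 of the 10 had the pattern of the glycolytic genes, near the 37.5% of all genes of at least 50 FPKM. The extremes of the list, *Myh1* and *Tnnt3*, were listed at 0 in WT mice 2277 and 2280 and in mouse 2276, respectively, so no fold is given. Parvalbumin (*Pvalb*), a calcium buffer of the fastest fibers, was at 11342, 11651 and 20287 FPKM in the WT mice and at 32969, 13456 and 10828 in HrasG12V mice. Of 10 slow-fiber genes 9 had a positive log2 fold change, with a median of 2.54, and none had the pattern of the glycolytic genes. *Tpm3* (1.55, SE 0.60, limma adjusted p = 0.48) was the only one with an unadjusted p below 0.05, a share near the 10.2% of all genes tested. *Myh7* was the highest (3.30, SE 1.97) and *Mybpc1* the lowest (-0.56, SE 0.34). Without WT mouse 2281 the median of the slow-fiber list was 0.65, and that of the fast-fiber list was 0.04. In that mouse *Myl2*, a slow myosin light chain, was at 3.42 FPKM against 397 and 410 in the other WT mice and 1073, 266 and 665 in HrasG12V mice. The same mouse had the highest WT values of 9 of the 10 glycolytic genes. Of the 12 other myofiber transcripts, 11 were tested and 4 had the pattern, again near the 37.5% of all genes of at least 50 FPKM. Their median was 0.07, and -0.20 without WT mouse 2281. *Neb*, the giant thin-filament protein, was the lowest, and *Ckm*, listed at 0 in 5 libraries, the highest. Only *Neb* had an unadjusted p below 0.05 (-0.59, SE 0.24, limma adjusted p = 0.48), a share near the 10.2% of all genes tested.

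Genes outside all these lists were ranked by how closely they followed the mean of the 10 glycolytic genes over the 6 libraries. Among 5170 genes of at least 10 FPKM, 17.0% had Pearson's r above 0.9. The closest were *Ppm1j* (r = 0.998), *Laptm4a* (0.997), *Vdac2* (0.997), *Cmc2* (0.997) and *Pabpc4* (0.996). *Ppm1j* was at 23.2, 19.8 and 25.2 FPKM in the WT mice and 35.6, 13.3 and 11.6 in HrasG12V mice. The farthest were *Sepp1* (r = -0.992), *Arf3* (-0.991), *Iqgap1* (-0.988), *Samhd1* (-0.984) and *Map4k4* (-0.982). *Sepp1*, which encodes a secreted selenium carrier, was at 102, 109 and 84.5 FPKM in the WT mice and 68.8, 143 and 157 in HrasG12V mice. These correlations rest on 6 points, are led by the 3 HrasG12V mice, and describe likeness only.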

How the data were processed

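RNAseq was performed by the authors on 1 gastrocnemius library per mouse. Per the labels and methods, stranded mRNA libraries were sequenced as single-end reads, mapped with TopHat and quantified with Cufflinks and Cuffnorm. The submitters' processing notes also name bcl2fastq and the builds GRCm38 and mm10. The tool versions and the annotation were not given in the sources used here. The deposited values are FPKM, 1 per gene symbol and library, scaled between libraries by the authors. Low FPKM showed no steps of whole reads, so the depth of each library is known only as the nominal one of the methods, and no count model was used. Reads shared by near-identical copies may have been split by the authors' counting.

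From the deposited FPKM, log2(FPKM + 0.1) was computed for 13359 genes of mean FPKM at least 0.5. A fold change on this scale understates that of low genes. Genotypes were compared with limma 3.58.1 (empirical Bayes with an abundance trend) in R 4.3.3 without covariates, with Benjamini-Hochberg adjustment over all genes. Isozyme ratios were compared by exact permutation. The p-values measure the spread between mice, 1 library each. Alternatives were other pseudocounts, filters and scalings, no moderation, array weights, leaving out each mouse and, added after the data were seen, removal of the length trend. Centring used 10 of 12 listed myofiber genes, since *Acta1* and *Ckm* were listed at 0. Lengths and positions came from GENCODE vM21, with a length for 99.3% of the genes tested. Upstream sequences are RefSeq's. Python 3.11.15, pandas 2.3.3, numpy 2.4.6, scipy 1.17.1 and matplotlib 3.10.9 were used.

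The 10 genes and the lists were chosen with earlier results of these data known. Named genes were the 10, the genes of the isozyme ratios, in each pathway list those with unadjusted p below 0.05 and the highest and lowest fold change, and the 5 genes most and least like the mean of the 10. The result for 1 gene that this rule names is not reported here. *Pkm*, *Slc2a4*, *Hif1a*, *Pvalb*, *Eno1b*, *Myl2* and the genes named for a listing at 0 were picked once their values had been seen.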

Additional observations from a re-analysis of the deposited data

How the results depend on the processing

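The precision of each value is known only from 3 mice per genotype, since read counts per library were not used here. No paired analysis was possible because the mice share no replicate numbers. Of the 13359 genes tested 1358 had an unadjusted p below 0.05, and this count became 3042 with array weights, 712 with a filter at 5 FPKM, 712 with the same total FPKM, 301 when centred on myofiber genes and 606 to 3979 when single mice were left out. Those with an adjusted p below 0.05 were 8, and 572 with array weights, 5 with a pseudocount of 1, 1 without moderation and 7 to 1291 with single mice left out. The highest counts were those without mouse 2276. In addition, 635 and 709 genes had an unadjusted p below 0.05 without WT mice 2277 and 2280, and the lowest count, 606, was that without WT mouse 2281, where 14 passed adjustment. Of the 10 glycolytic genes 0 had an unadjusted p below 0.05, against 8 with array weights, 2 each with quantile normalization and the same total FPKM, and 0 to 9 with single mice left out, and 0 to 3 passed adjustment, the 3 without mouse 2276. Fold changes turned positive for *Gpi1* when centred on myofiber genes (0.021) and for *Gapdh* under quantile normalization (0.050). With single mice left out they ran from -0.48 to 0.25 for *Gpi1*, from -0.83 to 0.081 for *Tpi1*, from -0.68 to 0.072 for *Gapdh* and from -1.02 to 0.061 for *Pgam2*. The log2 isozyme ratios likewise ran from -0.34 to 0.34 for *Aldoa* over *Aldoc*, from -0.76 to 0.40 for *Eno3* over *Eno1* and from -0.80 to 0.21 for *Ldha* over *Ldhb*. The cause of these changes was not tested. The other pseudocounts, filters, median centring, unmoderated fits and removal of the length trend left all 10 fold changes negative and uncalled, with medians from -0.48 to -0.39.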
